A study of Mus musculus with 3 samples.

Results

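Among mouse embryonic fibroblasts sampled at 4 dpi (times are in the labels' own unit) during direct conversion toward motor neurons, 528 of 4492 kept cells carried at least 2 transcripts of Tubb3, the neuronal beta-tubulin, and none of Col1a1, a chain of the main fibrillar collagen of fibroblasts. These cells, called the Tubb3 cells below, made up 11.8% of the library (95% counting interval 10.8 to 12.7) and held 14.2% of its transcripts. A transcript here is a unique molecular identifier (UMI), a tag that counts each captured RNA molecule once. Cells were kept with at least 500 genes detected and at most 20% of UMIs from mitochondrially encoded genes. Because UMI counts of Tubb3 and Col1a1 chose the cells, levels of these genes describe the choice and are not a result. The levels of all other genes are given as a description of the chosen cells, without a test.

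Per the labels, all cells came from fibroblasts that carried Hb9::GFP, in which control elements of Mnx1, a gene of motor neurons, switch on a fluorescent protein. All had received the LNI cassette (Lhx3, Neurog2 and Isl1 from a single construct) and DDRR, which joins the activated HRAS(G12V) to p53DD, a fragment that blocks p53. The 4 dpi culture had the supplements BDNF, CNTF, GDNF and FGF, which are growth factors, and RepSox, an inhibitor of a TGF-beta receptor kinase. Its cells were dissociated with trypsin and sorted for low signal of CellTrace-FarRed, a dye that each division dilutes. At 14 dpi, 1 library came from a culture with the same supplements and 1 from a culture without them, both dissociated with papain and DNase and sorted as Hb9::GFP-positive. There was 1 library per group, which leaves every difference without a replicate, and each interval covers counting error only. The 4 and 14 dpi libraries differ at once in time, sort, dissociation and depth, and these cannot be told apart. Introduced transcripts of Lhx3, Neurog2, Isl1, HRAS and p53 were not separated from endogenous ones in the 3′ reads. Whether the counts on the mouse genes include introduced transcripts was not tested.

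In the embryo, proneural factors of the basic helix-loop-helix family such as Neurog2 start neurogenesis by switching on a cascade of further factors, among them Neurod1, Nhlh1, Nhlh2 and Hes6. Committed cells then leave the cell cycle and make general neuronal proteins: RNA-binding proteins, tubulins, neurofilaments and, later, the machinery of synapses. Lhx3 and Isl1 act with the proneural factor to direct this programme to motor neurons, whose defining factor is Mnx1.

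The Tubb3 cells were deeper than the other kept cells. Their median depth was 2853 UMIs and 1418 genes, against 2233 UMIs and 1175 genes in the 3964 other kept cells. Mitochondrially encoded genes took 3.84% of UMIs in the Tubb3 cells and 3.67% in the other kept cells, and ribosomal protein genes took 19.2% and 21.2%. Levels are therefore given as CPM, the UMIs of a gene scaled to a common total, from UMIs summed over a set of cells, with 1731984 UMIs in the Tubb3 cells and 10470825 in the others. The same choice of cells gave 1656 of 2314 kept cells at 14 dpi with supplements (71.6%) and 1556 of 3716 without (41.9%), at median depths of 15638 and 11463 UMIs. The 3 pairs of libraries shared 5, 4 and 3 barcodes.

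Of the genes that mark these cells in the naming of the set, 3 of the 4 that the rule did not use were higher in the Tubb3 cells and 1 was not. Hes6, a helix-loop-helix factor that promotes neurogenesis, stood at 389 CPM in the Tubb3 cells (interval 360 to 419) and at 113 CPM in the other kept cells (106 to 119). Neurog2 stood at 515 CPM (482 to 550) and at 261 CPM (251 to 271). The v.EGFP transcript of the reporter had 670 CPM (632 to 710) and at 101 CPM (94.9 to 107). Crabp1, which binds retinoic acid in the cytoplasm, was abundant throughout, at 7702 CPM in the Tubb3 cells and 7000 CPM in the others, a log2 ratio of 0.14, and so did not set the Tubb3 cells apart. Tubb3 itself, which the rule used, stood at 1032 and 111 CPM. Mapt, the gene of the axonal protein tau, had 6 UMIs in all Tubb3 cells together, while the 30 genes of the synaptic and mature list together had 761. Neurog2 is also a gene of the cassette, and its introduced and endogenous transcripts were not separated. The summed levels of Hes6 and the reporter, without Neurog2, go with the label of early neuronal cells. No v.EGFP UMI was counted in 411 of the 528, however. The markers were named with earlier results of these data known, so they describe the label and do not test it. These cells kept fibroblast transcripts such as Col1a2 at 658 CPM and Vim at 2385 CPM.

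Shares of cells with a UMI gave the same order once every cell had been thinned to 1000 UMIs, which kept 524 Tubb3 cells and 3855 others. Background was read in 315 cells with no Tubb3 and at least 5 Col1a1 UMIs, at a median depth of 2164.5 UMIs before thinning. These are cells of the same culture, chosen at the opposite end of the genes of the rule. Their shares therefore describe that choice and do not measure false detection. Hes6 was detected in 29.6% of Tubb3 cells (25.7 to 33.7), 8.87% of other kept cells and 1.90% of the background cells. Neurog2 was detected in 37.8% of Tubb3 cells, 18.6% of others and 6.67% of the background cells. The share for v.EGFP was 18.5% of Tubb3 cells and 2.62% of others, and 0 of 315 background cells, which allows a share of up to 0.952%. Neurod1 was detected in 17.9% of Tubb3 cells, 4.75% of others and 0 of 315 background cells, and Elavl3 in 8.40%, 0.73% and 0 of 315. Crabp1 was detected in 93.3%, 90.0% and 82.2% of the same sets. Before thinning, the shares of Tubb3 cells and other kept cells were 53.4% and 17.8% for Hes6, 69.3% and 37.6% for Neurog2, 22.2% and 3.81% for v.EGFP, 40.0% and 10.1% for Neurod1, and 16.7% and 1.94% for Elavl3. In most Tubb3 cells, therefore, no reporter transcript was counted.

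Across the genes, 8280 had a mean of at least 10 CPM over the Tubb3 cells and the other kept cells of the 4 dpi library. Of these, 227 (2.74%) were higher in the Tubb3 cells by 2-fold or more and 407 (4.92%) were lower by as much. Counting only genes whose whole interval lay beyond 2-fold, 95 (1.15%) were higher and 178 (2.15%) lower. The median log2 ratio over all genes tested was 0.03. A gene that is low in 1 set can pass the filter through its level in the other set alone. The lower genes numbered 219 against other cells without Col1a1 and 238 with cells of any Col1a1 let in, and among cycle-low cells alone (S phase and G2/M genes under 0.5% of UMIs) 526 were higher and 644 lower. The higher genes numbered 346 with a looser rule, at least 1 Tubb3 and no Col1a1 UMI, in cells thinned to 1000 UMIs.

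The 20 genes with the highest ratios included Elavl3, Dcx, Stmn2 and Ina of the early pan-neuronal list. Elavl3, which encodes a neuronal RNA-binding protein, led with 79.7 CPM in the Tubb3 cells and 9.45 CPM in the others, a log2 ratio of 3.08 (2.69 to 3.46). Dcx, whose product binds microtubules in migrating young neurons, stood at 45.0 and 6.78 CPM, a log2 ratio of 2.73 (2.25 to 3.22). Stmn2, a regulator of microtubules in growing axons, stood at 19.6 and 3.44 CPM, a log2 ratio of 2.51 (1.79 to 3.23). Ina, the neuronal intermediate filament alpha-internexin, stood at 186 and 40.8 CPM (log2 2.19). St18, a zinc-finger transcription factor, stood at 66.4 and 8.79 CPM (log2 2.92), and the homeobox gene Tlx2 at 20.8 and 2.96 CPM (log2 2.81). Further genes among the 20 were Smpd3, a sphingomyelinase, with a log2 ratio of 3.02, the reporter v.EGFP with 2.73, Lzts1 with 2.39, Tagln3 with 2.33, the growth factor Fgf9 with 2.26, Ssu2 with 2.25 and the phosphodiesterase gene Pde1c with 2.19. Amer2, Zcchc18, Igfbpl1, Rapgef5 and Gm26644 had log2 ratios of 2.02 to 2.20, and Dpysl4 stood at 24.8 and 6.21 CPM. Levels of these genes were low: 15 of the 20 stood under 60 CPM in the Tubb3 cells.

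The 12 genes with the lowest ratios included 5 chemokine genes. Ccl2, a chemokine that attracts monocytes, stood at 46.8 CPM in the Tubb3 cells (37.1 to 58.1) and at 862 CPM in the other kept cells (845 to 880), a log2 ratio of -4.20. Ccl7 stood at 5.77 and 175 CPM (log2 -4.92) and Ccl5 at 20.8 and 321 CPM (log2 -3.95), both chemokines. H19, an imprinted noncoding RNA of growing embryonic tissue, stood at 8.08 and 133 CPM (log2 -4.04). The matrix protease gene Mmp3, the proteoglycan gene Kera, the chemokine gene Ccl11 and the lipid receptor gene S1pr3 each had a single UMI in the Tubb3 cells, with log2 ratios of -5.97 (-11.27 to -3.48), -5.55 (-10.86 to -3.06), -5.37 (-10.68 to -2.88) and -5.29 (-10.60 to -2.80). Cxcl2 and C1qtnf7 had 2 UMIs each, with log2 ratios of -4.20 (-7.25 to -2.33) and -4.07 (-7.12 to -2.20). Plscr2 had 3 and Serpina3g 4, both at a log2 ratio of -3.98, with intervals of -6.27 to -2.42 and -5.86 to -2.61. The value of Cxcl2 turned to 0.60 when cells with Col1a1 were let into the set. All others of the 12 were weaker in that setting, from -3.31 for Mmp3 to -1.46 for Kera, with Ccl2 at -2.01 and H19 at -2.41. The size of these ratios thus depends on the absence of Col1a1 in the rule.

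**Figure D1:**
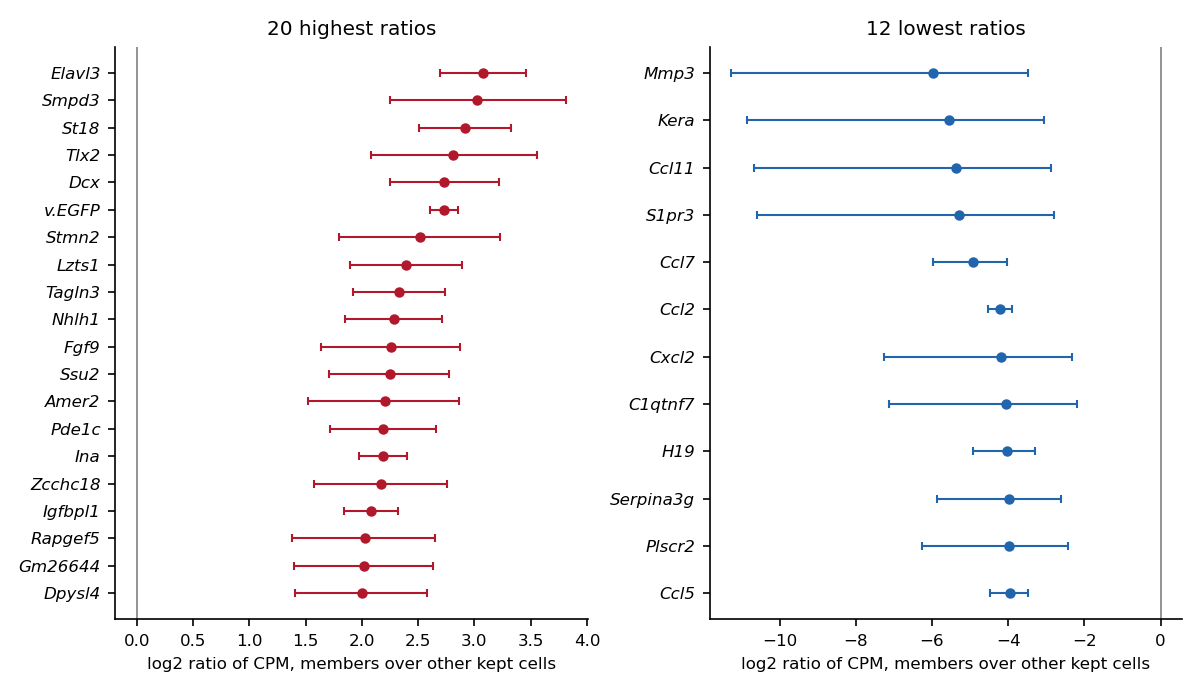
Log2 ratio of CPM in the 528 Tubb3 cells over the 3964 other kept cells of the 4 dpi library (x axis) for the 20 genes with the highest and the 12 with the lowest ratios (rows). Points are ratios and bars are 95% counting intervals. Elavl3 leads the highest at 3.08, and the widest bars belong to Mmp3, Kera, Ccl11 and S1pr3, each with 1 UMI in the Tubb3 cells.

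Factors of the proneural cascade were higher together in the Tubb3 cells. Of the 32 listed genes, 18 passed the filter on low values, and of these 10 were at least 2-fold higher and 0 lower, with a median log2 ratio of 1.14 against 0.03 over all genes tested. The list holds Neurog2, a cassette gene, whose log2 ratio of 0.98 lay under 2-fold. Nhlh1, a helix-loop-helix factor of newly born neurons, stood at 47.9 CPM in the Tubb3 cells (38.2 to 59.4) and at 9.84 CPM in the others (8.03 to 11.9), a log2 ratio of 2.28. Neurod1, a direct follower of the neurogenins, stood at 224 CPM (202 to 247) and at 58.4 CPM (53.8 to 63.2), a log2 ratio of 1.94. Nhlh2 stood at 146 and 42.0 CPM (log2 1.80), and Insm1, a zinc-finger factor of neuron-forming progenitors, at 87.2 and 28.6 CPM (log2 1.61). The SoxC factors Sox4 and Sox11 had log2 ratios of 1.14 and 1.13. Ebf1 (log2 -0.16) and Gadd45g (0.33) were close between the sets. Ligands of the Notch pathway were sparse: Dll3 had 29 UMIs in the Tubb3 cells and 31 in the others, and Dll1 had 6 and 60, all under the filter. Of 18 Notch receptors and effectors only 5 passed it, with 0 beyond 2-fold, and the effector Hes1 had 9 UMIs in the Tubb3 cells and Hes5 had 1.

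Promoters of the 4 proneural genes with the highest ratios are shown because Neurog2 and the factors of its cascade bind the E-box, CANNTG. Each runs over the 250 bases before the annotated start, 5′ to 3′ toward the gene, from RefSeq on GRCm38.p6, and not on GRCm39, the build of the counts per the submitters' processing notes. Capitals mark E-boxes, searched on both strands (CANNTG reads the same on each). The window of Nhlh1 lay at chr1:172057597-172057846, minus strand, that of Neurod1 at chr2:79456637-79456886, minus strand, that of Nhlh2 at chr3:102009895-102010144, plus strand, and that of Hes6 at chr1:91414039-91414288, minus strand.
Nhlh1: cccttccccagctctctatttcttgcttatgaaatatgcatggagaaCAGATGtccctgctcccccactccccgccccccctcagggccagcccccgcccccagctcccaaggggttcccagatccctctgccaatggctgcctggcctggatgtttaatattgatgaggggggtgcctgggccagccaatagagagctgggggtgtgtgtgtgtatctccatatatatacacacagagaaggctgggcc
Neurod1: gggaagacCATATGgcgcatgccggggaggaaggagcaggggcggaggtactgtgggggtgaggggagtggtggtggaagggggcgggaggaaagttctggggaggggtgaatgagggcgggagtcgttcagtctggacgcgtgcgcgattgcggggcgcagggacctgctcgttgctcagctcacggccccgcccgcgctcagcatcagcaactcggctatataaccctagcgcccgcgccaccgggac
Nhlh2: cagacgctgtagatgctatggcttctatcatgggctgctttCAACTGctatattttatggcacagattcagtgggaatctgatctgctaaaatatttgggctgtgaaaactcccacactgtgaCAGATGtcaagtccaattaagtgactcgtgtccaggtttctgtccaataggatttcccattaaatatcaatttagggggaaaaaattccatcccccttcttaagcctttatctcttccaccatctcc
Hes6: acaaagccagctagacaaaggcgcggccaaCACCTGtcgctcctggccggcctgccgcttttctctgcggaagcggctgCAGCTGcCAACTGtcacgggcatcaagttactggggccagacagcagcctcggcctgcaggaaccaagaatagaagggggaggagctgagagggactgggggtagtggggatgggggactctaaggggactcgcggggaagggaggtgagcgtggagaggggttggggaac
The windows of Nhlh1 and Nhlh2 held CAGATG, that of Neurod1 held CATATG, and that of Hes6 held 3 E-boxes, none of them CAGATG or its other strand CATCTG. Across the promoters found by symbol, CAGATG or CATCTG stood in 24 of 173 genes at least 2-fold higher in the Tubb3 cells (13.9%), in 41 of 306 genes at least 2-fold lower (13.4%), in 587 of 6691 genes tested (8.77%) and in 3913 of all 27025 promoters of the table (14.5%). The share was thus alike in genes higher and genes lower in the Tubb3 cells. Any CANNTG stood in 63.0% of promoters of the higher genes, 59.2% of the lower ones, 53.5% of all genes tested and 66.0% of the table. A match is a description of these letters and not a binding site.

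General neuronal genes showed the same direction as the proneural factors. Of 35 listed early pan-neuronal genes, 26 passed the filter, 16 of them were at least 2-fold higher in the Tubb3 cells and 0 lower, with a median log2 ratio of 1.22. Beside Elavl3, Dcx, Stmn2 and Ina, the RNA-binding protein genes Elavl4 and Elavl2 stood at 224 and 165 CPM in the Tubb3 cells, against 62.8 and 51.0 CPM in the others. The tubulin gene Tubb2b stood at 249 CPM against 82.1 CPM. The microtubule-associated Map1b was the most abundant of those named here, at 1101 CPM against 419 CPM (log2 1.39). Gap43, a protein of growth cones, went the other way, at 111 CPM in the Tubb3 cells and 215 CPM in the others (log2 -0.95). Of 30 genes of synaptic vesicles and mature neurons, 8 passed the filter and 4 were at least 2-fold higher: Syp, Chgb, Snap25 and Rab3a, with log2 ratios of 1.93, 1.49, 1.37 and 1.05. Their levels were low, with Syp at 16.7 CPM in the Tubb3 cells and 4.39 CPM in the others.

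Motor neuron genes were mixed. Of 27 listed, 11 passed the filter, with 2 higher and 2 lower by 2-fold or more, and a median log2 ratio of 0.66. The higher ones were Cntn2, an axonal adhesion molecule, at 249 and 82.2 CPM, and Foxp1, a transcription factor of limb-innervating motor neurons, at 174 and 67.7 CPM. The lower ones were Slc5a7, the choline transporter of cholinergic neurons, at 10.4 and 43.8 CPM, and Slit3, a secreted guidance cue, with a log2 ratio of -1.61. Mnx1, whose regulatory sequence drives the reporter, had 6 UMIs in the Tubb3 cells and 1 in the others, and Slc18a3, the vesicular transporter of acetylcholine, had 3 and 1. The cassette genes Lhx3 and Isl1 stood at 188 and 160 CPM in the Tubb3 cells, against 102 and 81.4 CPM in the others, log2 ratios of 0.88 (0.70 to 1.06) and 0.97 (0.77 to 1.17), close to the 0.98 of Neurog2. Counts on the mouse genes Hras and Trp53 were close between the sets. Hras stood at 107 and 122 CPM (log2 -0.18, interval -0.41 to 0.04) and Trp53 at 206 and 225 CPM (log2 -0.13, interval -0.29 to 0.03). Whether these counts include transcripts of the DDRR construct was not tested. Of 3 nicotinic acetylcholine receptor genes tested, a list added after values were seen, Chrna3 (102 and 27.5 CPM) and Chrnb4 (24.2 and 8.69 CPM) were more than 2-fold higher in the Tubb3 cells.

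Fibroblast genes were lower, and part of this difference followed the absence of Col1a1 in the rule. Of 36 genes of the fibroblast matrix list, 35 were tested, 24 were at least 2-fold lower in the Tubb3 cells and 0 higher, with a median log2 ratio of -1.44. Mgp, a matrix protein that restrains calcification, stood at 51.4 and 585 CPM (log2 -3.51) and Dcn, the proteoglycan decorin, at 115 and 1094 CPM (log2 -3.25). Against the 2120 other kept cells that also lacked Col1a1, the median was -0.64 in place of -1.44. The intermediate filament gene Vim (log2 -0.24) and the galectin gene Lgals1 (log2 -0.27) were close between the sets. Among 18 tested mesenchymal transcription factors, 7 were at least 2-fold lower, led by Aebp1 (log2 -2.76), the pluripotency and fibroblast factor Klf4 (-2.23) and Osr1 (-1.73). Prrx1, a factor of limb mesenchyme, stood at 607 and 589 CPM (log2 0.04) and Twist1 at 195 and 291 CPM (log2 -0.58).

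Genes of the innate immune response formed another lower group. Of 22 interferon-stimulated genes found and tested, 12 were at least 2-fold lower in the Tubb3 cells and 0 higher, with a median log2 ratio of -1.04 (-0.71 against other cells without Col1a1). Cxcl10, an interferon-induced chemokine, stood at 202 and 895 CPM (log2 -2.15), and Ifit3, an antiviral protein gene, at 105 and 418 CPM. In 2 lists added after values were seen, 8 of 11 chemokine genes and 9 of 10 genes of class I antigen presentation were at least 2-fold lower. The class I gene H2-K1 stood at 46.2 and 279 CPM (log2 -2.59) and B2m, the shared light chain, at 594 and 1175 CPM (log2 -0.98). These lists overlap, since Cxcl10 is on 2 of them.

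Stress and signalling genes differed less. Over all genes tested, 2.74% were at least 2-fold higher and 4.92% lower, so a single higher gene in lists of 15 to 23 genes says little about the list. Of 16 p53 target genes tested, 5 were at least 2-fold lower, with a median log2 ratio of -0.62. Fas, a death receptor, stood at 2.89 and 29.7 CPM (log2 -3.36), and Mdm2, the ubiquitin ligase of p53, at 58.3 and 126 CPM (log2 -1.11). The only 1 that was at least 2-fold higher was Sesn1, at 19.6 and 8.50 CPM. Of 21 genes of the integrated stress response, 3 were at least 2-fold lower (Nupr1, Ddit3 and Trib3) and the median was -0.46. Of 23 Ras-ERK feedback and target genes, 4 were lower (Ereg, Ets1, Fosl1 and Hbegf) and 1 higher, the phosphatase gene Dusp4 at 212 and 94.8 CPM. Of 15 TGF-beta response genes, 3 were lower and 1 higher, the inhibitor Id2 at 508 and 249 CPM. Their median of -0.59 became 0.04 against other cells without Col1a1. Of 15 glycolysis and hypoxia genes, Egln3, an oxygen-sensing hydroxylase, was alone beyond 2-fold, at 163 and 60.5 CPM, with a list median of 0.01. None of the 41 S phase and 51 G2/M genes tested was beyond 2-fold, and their medians were 0.08 and 0.26.

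**Figure D2:**
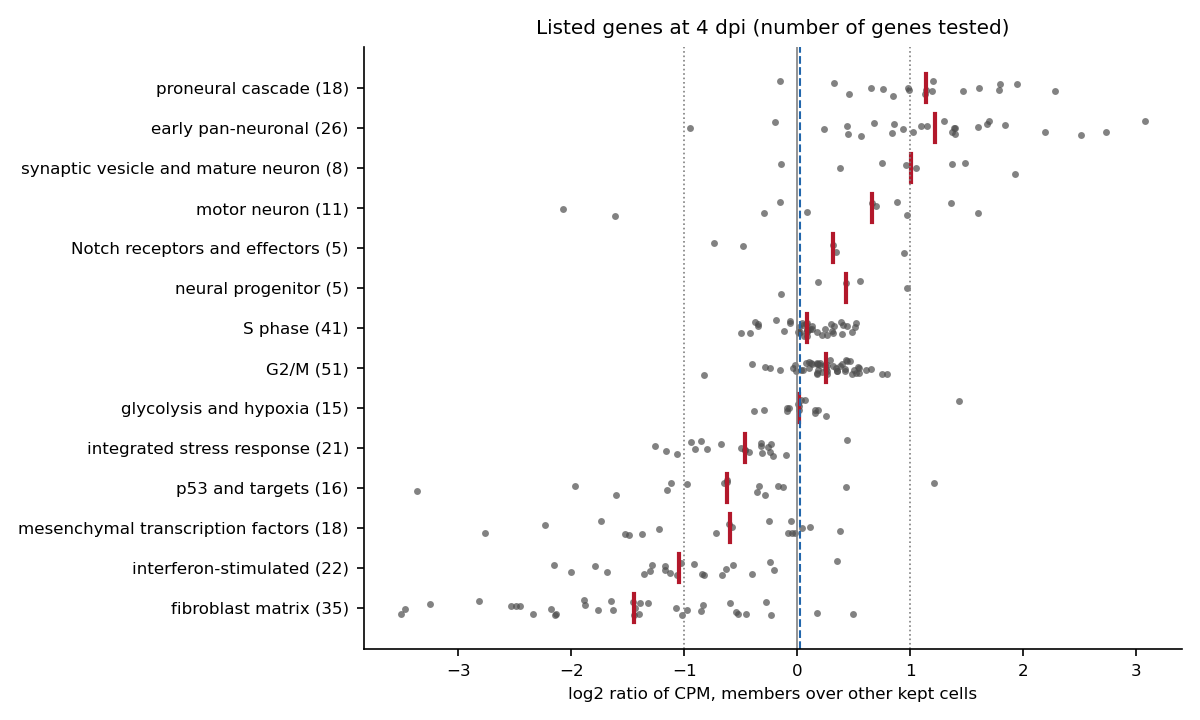
Log2 ratio of CPM in the Tubb3 cells over the other kept cells at 4 dpi (x axis) for the genes of 14 lists (rows, number tested in brackets). Each dot is a gene, red bars are list medians, the dashed blue line is the median of all genes tested, and dotted lines mark 2-fold. The early pan-neuronal and proneural medians stand at 1.22 and 1.14, and the fibroblast matrix and interferon medians at -1.44 and -1.04.

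Transcripts of most other cell types checked were scarce, but those of the contractile list were not. In the Tubb3 cells 11 of 13 immune markers, 8 of 8 erythroid, 10 of 12 epithelial, 6 of 11 endothelial, 9 of 18 skeletal muscle and 6 of 16 glial and neural crest markers were at 0. Summed over each list, immune markers stood at 1.73 CPM in the Tubb3 cells and 26.6 CPM in the others, endothelial at 28.9 and 50.4 CPM, epithelial at 50.8 and 39.5 CPM, and glial and neural crest at 126 and 190 CPM. Adipocyte markers stood at 16.7 and 33.9 CPM and chondrocyte markers at 60.6 and 76.8 CPM. The contractile list stood at 3719 and 3914 CPM, with 2 of 15 genes tested at least 2-fold lower and a median log2 ratio of -0.15. Most of the epithelial sum came from the keratin genes Krt8 and Krt18, and Epcam was at 0 in the Tubb3 cells. Of the muscle list, Chrna1 held 169 of the UMIs in the Tubb3 cells. Of the neural progenitor list, 0 of 5 genes tested were beyond 2-fold: Sox2 stood at 32.9 and 28.9 CPM and Nes at 29.4 and 32.5 CPM.

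The levels of early neuronal genes were also read by Tubb3 UMIs, the values that chose the cells, so these steps are a description. Among cells without Col1a1, 476 had exactly 1 Tubb3 UMI and 1644 had none. Hes6 stood at 389 CPM in the Tubb3 cells, 260 CPM in cells with 1 UMI and 117 CPM in cells with none. Along the same steps Neurod1 had 224, 134 and 61.9 CPM, Ina at 186, 91.0 and 32.0 CPM, and Elavl3 at 79.7, 19.9 and 7.71 CPM. Such an ordered increase with Tubb3 held for 15 of 18 proneural and 23 of 26 early pan-neuronal genes tested, against 22.1% of all 8280 genes tested. An ordered decrease held for 19 of 22 interferon-stimulated and 31 of 35 fibroblast matrix genes, against 24.1% of all. Ccl2 stood at 46.8, 255 and 555 CPM across the same steps, while Col1a2 hardly moved, at 658, 725 and 752 CPM.

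The 237 Tubb3 cells with exactly 2 UMIs had 359 CPM of Hes6 and 465 CPM of v.EGFP, against 260 and 317 CPM in the 476 cells with 1 UMI. The 78 cells with at least 2 Tubb3 UMIs and exactly 1 Col1a1 UMI had 217 CPM of Hes6, 173 CPM of v.EGFP and 220 CPM of Ccl2. Summed over all 153 cells with at least 2 Tubb3 UMIs and any Col1a1, Neurod1 stood at 84.6 CPM and Ccl2 at 680 CPM. Tubb3 and Col1a1 share these barcodes by the choice. Whether other neuronal and fibroblast transcripts shared them was not counted. Of 4688 genes tested at a mean of at least 30 CPM, 138 (2.94%) were at least 2-fold higher in these 153 cells than in the Tubb3 cells, 21 of 32 fibroblast matrix genes among them, and 45 (0.96%) were lower, with 6 of 15 proneural genes. A doublet caller marked 2 of 4492 cells, too few to have worked, and whether such barcodes hold 2 cells was not tested. Against the 237 Tubb3 cells with 2 UMIs, the 106 with 5 or more had 65 of 4639 genes (1.4%) at least 2-fold higher, 4 of 21 early pan-neuronal and 1 of 15 proneural genes among them, and 68 (1.47%) lower. In the 106 cells Elavl3 stood at 139 CPM, against 34.7 CPM in those with 2, and Stmn2 at 52.6 CPM against 4.16 CPM, while Neurog2 stood at 509 and 430 CPM and Isl1 at 151 and 150 CPM.

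**Figure D3:**
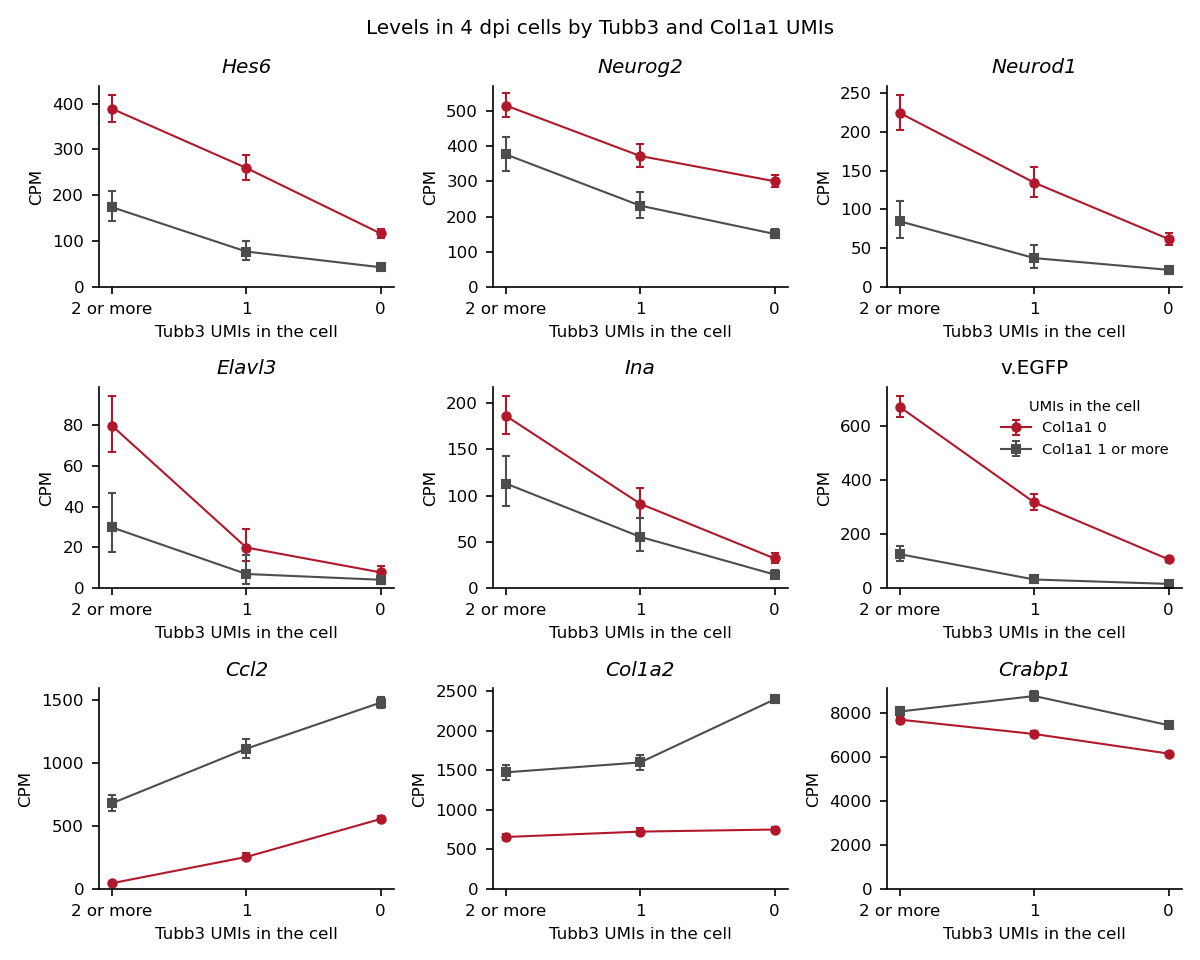
CPM (y axes) of 9 genes in the 4 dpi cells by Tubb3 UMIs in the cell (x axis), for cells with Col1a1 0 (red circles, the leftmost being the 528 Tubb3 cells) and Col1a1 1 or more (grey squares). Bars are 95% counting intervals. Hes6, Neurod1, Elavl3, Ina and v.EGFP are highest in the Tubb3 cells, Ccl2 is lowest there, and Crabp1 differs little.

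Genes of S phase and G2/M took at least 0.5% of UMIs in 282 of the 528 Tubb3 cells (53.4%) and in 1759 of the 3964 other kept cells. The 282 are called cycle-high and the 246 Tubb3 cells under that share cycle-low. The cycle-low cells still held 823 CPM of S phase and 1618 CPM of G2/M genes, against 3397 and 9849 CPM in the cycle-high cells, so the share does not separate dividing from resting cells. The cycle-low cells had Elavl3 at 152 CPM against 29.4 CPM, a log2 ratio of 2.37 (1.78 to 3.01). Ina stood at 325 CPM in the 246 cells and 89.1 CPM in the 282, and Dcx at 74.6 and 24.5 CPM. Stmn2 stood at 46.4 and 0.979 CPM, the last from a single UMI. The reporter v.EGFP stood at 1212 and 294 CPM, a log2 ratio of 2.04 (1.85 to 2.24). By contrast Hes6 stood at 369 and 402 CPM (log2 -0.13, interval -0.36 to 0.10), Neurod1 at 245 and 210 CPM (log2 0.22, interval -0.07 to 0.52), Isl1 at 159 and 161 CPM, and Insm1 at 56.3 and 109 CPM (log2 -0.95, interval -1.51 to -0.42). Nhlh1, the proneural gene beyond 2-fold in this split, stood at 76.0 and 28.4 CPM (log2 1.42).

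Over the genes with a mean of at least 30 CPM in that split, 148 of 4711 (3.14%) were at least 2-fold higher in the 246 cycle-low Tubb3 cells, with 8 of 21 early pan-neuronal genes among them and 1 of 15 proneural genes. The list medians were 0.91 and 0.26, against 0.04 over all genes tested. The other 213 genes beyond 2-fold (4.52%) were lower, which include the cell cycle genes that made the split. The 246 cells were shallower, with a median of 2393 UMIs against 3199. After thinning to 1000 UMIs, Elavl3 was detected in 14.4% of 243 cycle-low cells (10.2 to 19.5) and 3.20% of 281 cycle-high cells (1.47 to 5.99), and Hes6 in 29.2% and 29.9%.

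The Tubb3 cells were also split by the reporter. At least 3 UMIs of v.EGFP were counted in 86 of them, 1 or 2 in 31, and none in 411. In the 86 cells, at a median depth of 2303 UMIs against 2969 in the 411, neurofilament and RNA-binding protein genes were several-fold higher. Nefm, the medium neurofilament, stood at 2289 CPM in the 86 cells and 303 CPM in the 411, a log2 ratio of 2.92 (2.73 to 3.10). Ina stood at 670 and 85.5 CPM (log2 2.97), Elavl3 at 306 and 39.2 CPM (log2 2.97), Elavl4 at 642 and 129 CPM (log2 2.32) and Stmn2 at 86.9 and 7.83 CPM (log2 3.47). Neurod1 was close, at 236 and 223 CPM (log2 0.08, interval -0.35 to 0.49), as was Insm1, at 95.2 and 79.8 CPM. Hes6 at 497 and 367 CPM and Neurog2 at 695 and 479 CPM differed by log2 0.44 and 0.54. Of 6 synaptic and mature genes tested, 4 were at least 2-fold higher in the 86 cells, with a median log2 ratio of 1.28. Snap25, a protein of vesicle fusion, was not among them, at 74.5 and 76.2 CPM, and Gap43 stood at 70.4 and 120 CPM.

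Of 4772 genes tested in the reporter split, 308 (6.45%) were at least 2-fold higher in the reporter-high cells and 162 (3.39%) lower. These counts included 16 of 25 early pan-neuronal genes and 3 of 16 proneural genes among the higher ones, and 10 of 26 fibroblast matrix genes among the lower ones, with medians of 1.32, 0.49 and -0.87 against 0.10 over all. The share of cycle-high cells moved with the reporter, at 29.1% of the 86 cells and 58.9% of the 411. Within the cycle-low Tubb3 cells alone, 61 reporter-high cells had Nefm at 2689 CPM against 454 CPM in 169 cells without the reporter, a log2 ratio of 2.57 (2.33 to 2.80), and Neurod1 at 216 and 257 CPM. Of 4739 genes tested there, 389 (8.21%) were at least 2-fold higher in the reporter-high cells, with 18 of 26 early pan-neuronal genes, and 229 (4.83%) lower. Within the cycle-high cells, 25 reporter-high cells had Nefm at 1393 CPM against 215 CPM in 242 cells (log2 2.69, interval 2.33 to 3.05), and 569 of 4771 genes (11.9%) were higher and 301 (6.31%) lower, with 7 of 19 early pan-neuronal genes higher. The 61 and 25 reporter-high cells are parts of the 86, which together held 241612 UMIs. Genes near the filter of 30 CPM therefore rest on few UMIs in these cells, which limits the counts of called genes. The difference in Nefm was present in both the cycle-low and the cycle-high cells.

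**Figure D4:**
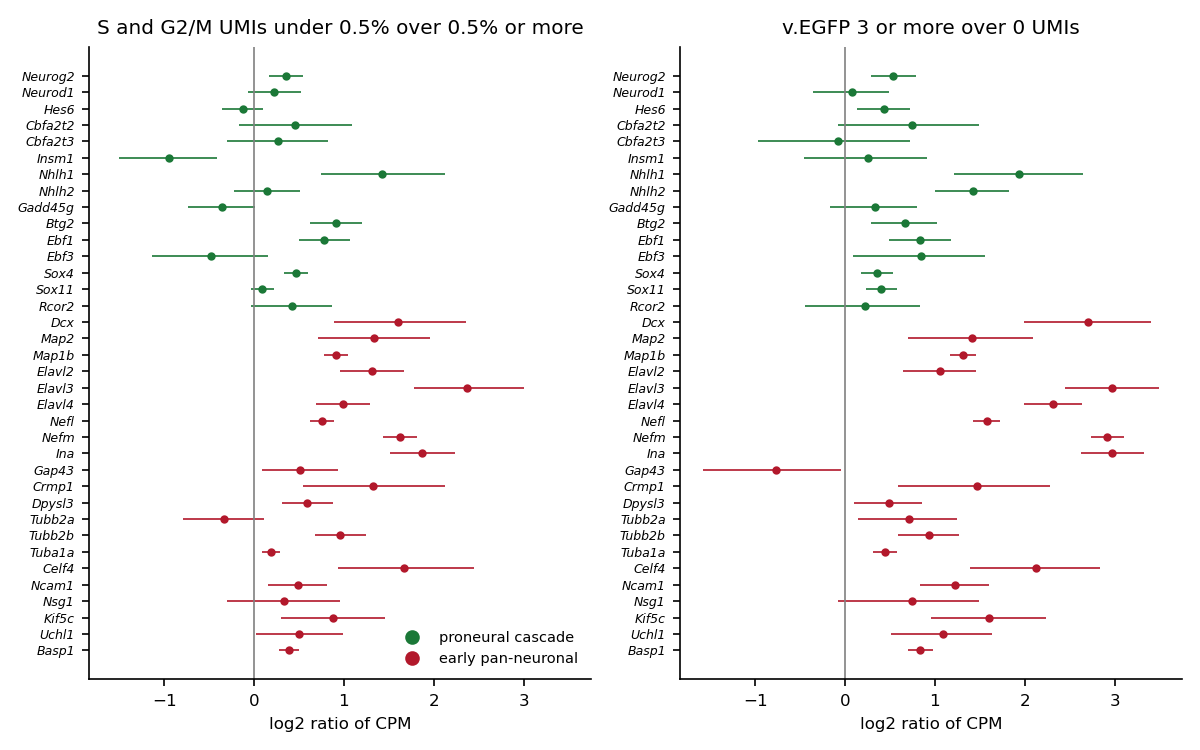
Log2 ratio of CPM (x axes) among the 528 Tubb3 cells for proneural (green) and early pan-neuronal genes (red), with 95% counting intervals. Left, 246 cells with under 0.5% of UMIs from S and G2/M genes over 282 cells with 0.5% or more. Right, 86 cells with at least 3 v.EGFP UMIs over 411 with none. Elavl3, Ina, Nefm and Dcx stand far right in both panels, Neurod1 and Hes6 near 0 in the left one, and Gap43 below 0 in the right one.

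The Tubb3 cells were also read by their Neurog2 UMIs. In 131 cells with at least 3 Neurog2 UMIs, at a median depth of 3695 UMIs, Isl1 stood at 244 CPM and Lhx3 at 265 CPM, against 92.1 and 116 CPM in 162 cells with none, at a median depth of 2265.5 UMIs. Elavl3 stood at 57.9 and 72.7 CPM in the same sets, Neurod1 at 235 and 221 CPM, Hes6 at 374 and 371 CPM, and Nhlh1 at 72.0 and 29.1 CPM. The cassette carries the 3 factors on a single construct, per the labels.

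Set beside cells chosen by the same rule at 14 dpi, the 4 dpi cells were higher for cell cycle, interferon-stimulated and some proneural genes and lower for genes of differentiated neurons. Against the 14 dpi library with supplements, 759 of 8633 genes tested (8.79%) were at least 2-fold higher in the 4 dpi cells and 1220 (14.1%) lower, with a median log2 ratio of -0.09. Against the library without supplements, 892 of 8786 (10.2%) were higher and 1624 (18.5%) lower, with a median of -0.12. Both comparisons share the 4 dpi cells. Set against the other kept cells of their own library, the chosen 14 dpi cells had 396 of 8806 genes (4.5%) at least 2-fold higher and 502 (5.7%) lower with supplements, and 660 of 8849 (7.46%) higher and 484 (5.47%) lower without. Their proneural medians were 0.51 and 0.90 and their early pan-neuronal medians 1.51 and 1.57, beside 1.14 and 1.22 at 4 dpi. Tubb3, which chose the cells in each library, stood at 1032 CPM at 4 dpi, against 1258 CPM with and 840 CPM without supplements at 14 dpi.

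Proneural factors followed no single order. Hes6 stood at 389 CPM at 4 dpi, against 99.0 CPM with and 125 CPM without supplements at 14 dpi, and Neurod1 at 224 CPM, against 111 and 107 CPM. Neurog2 stood at 515 CPM at 4 dpi, against 170 and 137 CPM, counts that may include transcripts of the cassette. Nhlh1 was level, at 47.9 CPM against 50.4 and 54.4 CPM, within the counting intervals of its ratios, and Nhlh2 was lower, at 146 CPM against 373 and 460 CPM. Crabp1 stood at 7702 CPM at 4 dpi, against 1089 and 407 CPM. The SoxC and Ebf factors, a list added after values were seen, had 6 genes tested and 0 beyond 2-fold in either comparison.

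Genes of general and mature neuronal function were lower at 4 dpi. Of the early pan-neuronal genes, 30 of 34 tested were at least 2-fold lower than with supplements and 29 of 35 lower than without, with medians of -2.30 and -2.60. Of the synaptic and mature genes, 19 of 19 and 24 of 25 were lower, with medians of -3.27 and -4.02. Stmn2 stood at 19.6 CPM at 4 dpi, against 1014 and 467 CPM, and Ina at 186 CPM, against 1013 and 1451 CPM. The granin gene Chgb stood at 85.5 CPM, against 1778 and 5055 CPM. The reporter v.EGFP, on which the 14 dpi cells had been sorted, stood at 670 CPM, against 2670 and 2448 CPM. Elavl3 was nearer, at 79.7 CPM against 114 and 192 CPM. The 10 genes with the lowest ratios against both libraries were at 9 UMIs or fewer in the 4 dpi cells: Pcsk1n, Syt4, Stmn4, Cplx1, Scg5, Ly6h, C1qtnf4, Arfgef3, Cacna1e and Cartpt. Pcsk1n, which encodes an inhibitor of prohormone processing, had 3 UMIs, with log2 ratios of -7.54 (-9.82 to -5.99) with and -7.06 (-9.34 to -5.51) without supplements.

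Cell cycle genes were higher at 4 dpi. Of the G2/M genes, 42 of 49 tested were at least 2-fold higher in each comparison and 0 lower, with medians of 2.20 and 2.86. Of the S phase genes, 26 of 35 and 27 of 34 were higher, with medians of 1.86 and 2.30. Top2a, the topoisomerase of dividing cells, stood at 277 CPM at 4 dpi, against 46.9 CPM with and 39.0 CPM without supplements. Of the interferon-stimulated genes, 15 of 21 and 13 of 21 were higher, although they were lower in the Tubb3 cells than in the other cells of their own library. Of the fibroblast matrix genes, 11 of 32 and 14 of 33 were at least 2-fold higher and 4 and 3 lower, with medians of 0.58 and 0.54. Ifit3 stood at 105 CPM, against 8.26 and 7.98 CPM. The 10 genes with the highest ratios against both libraries were H1f5, Acta2, Ssu2, Krt8, Gm49708, Itih5, H3c3, Synpo2, H2ac24 and Ifit3, of which H1f5, H3c3 and H2ac24 encode histones. The linker histone gene H1f5 stood at 287 CPM, against 13.9 and 8.81 CPM. Ssu2 was the only 1 of these 10 that was also among the 20 highest genes within the 4 dpi library, at 31.8 CPM against 1.87 and 1.48 CPM. Glycolysis and hypoxia genes differed between the comparisons, with a median of 0.30 against the library with supplements and -1.85 against that without, where 20 of 24 were at least 2-fold lower at 4 dpi.

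**Figure D5:**
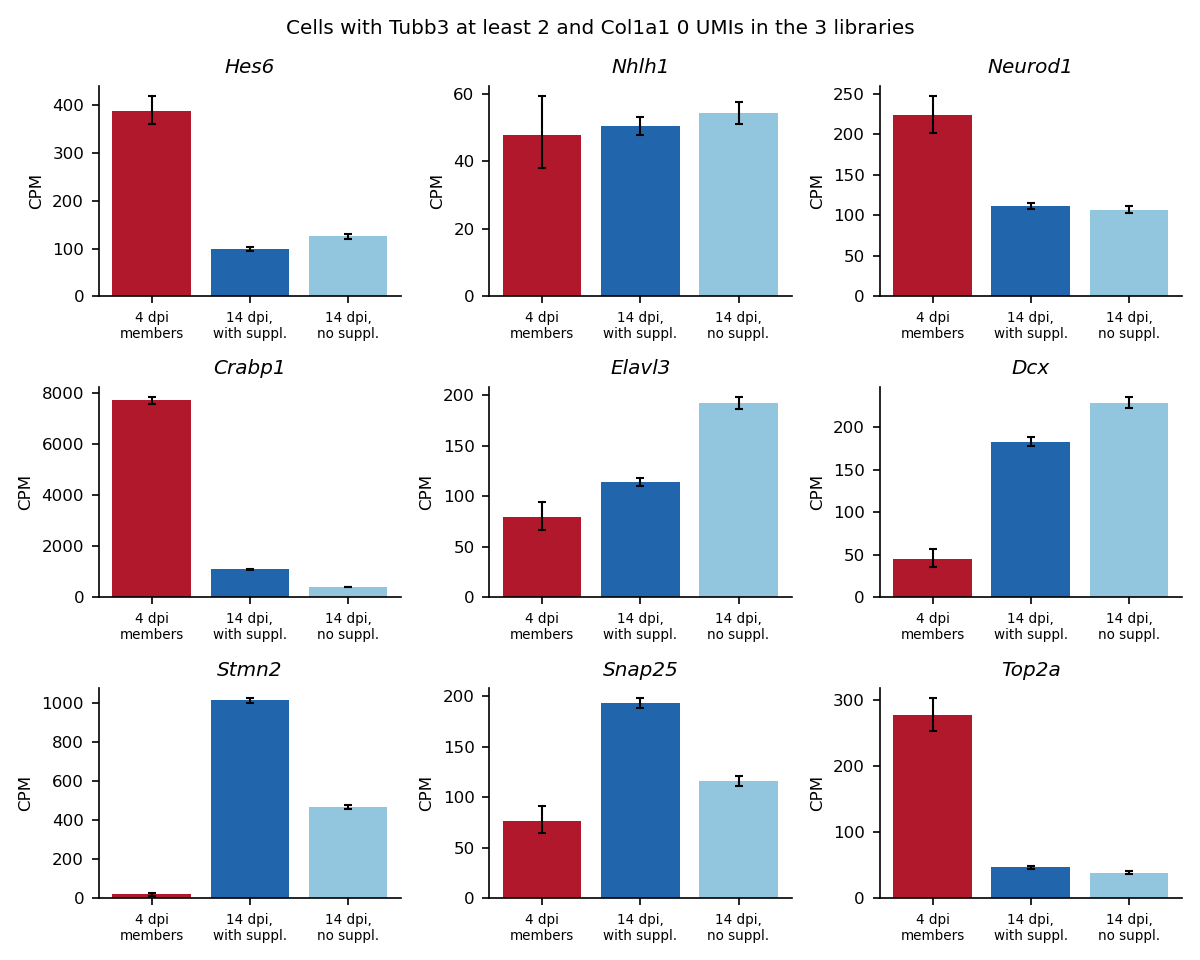
CPM (y axes) of 9 genes in cells with at least 2 Tubb3 and 0 Col1a1 UMIs in the 3 libraries (x axis): 528 cells at 4 dpi (red), 1656 at 14 dpi with supplements (dark blue) and 1556 at 14 dpi without (light blue). Bars from 0 are levels of summed UMIs with 95% counting intervals. Hes6, Neurod1, Crabp1 and Top2a are highest at 4 dpi, Nhlh1 is level, and Elavl3, Dcx, Stmn2 and Snap25 are lowest at 4 dpi.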

How the data were processed

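Single cells of 3 libraries were measured by 10x Genomics 3′ v3.1 RNA sequencing. The deposited matrices hold whole-number UMI counts for each gene in each barcode. Per the file headers they come from Cell Ranger 6.1.1, and per the submitters' processing notes the build was GRCm39. Cell calling and the treatment of intron reads are not stated in the labels or headers. Of 31783 deposited features, those sharing a symbol were summed (31744 symbols). Cells with under 500 genes, or over 20% of UMIs from 13 mitochondrial genes, were dropped, which left 4492 of 4602 barcodes at 4 dpi, 2314 of 2467 at 14 dpi with supplements and 3716 of 3893 without, at median depths of 2312.5, 14380.5 and 10664 UMIs.

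UMIs were summed over the Tubb3 cells and over the other kept cells and given as CPM. Log2 ratios have exact binomial (Clopper-Pearson) 95% intervals on the split of UMIs, a count of 0 was set to 3, and genes were tested at a mean of at least 10 CPM over both sides (30 CPM within the Tubb3 cells). Called means at least 2-fold. CPM have exact Poisson intervals. With 1 library per group no p-value was computed. UMIs of cells are not separate samples, so intervals and floors cover counting error only, and they are too narrow for differences between cultures. Shares used cells thinned to 1000 UMIs. The steps were tested on simulated counts. Scrublet (scanpy 1.11.5) called 2, 3 and 2 doublets in the 3 libraries, too few to have worked. Python 3.11.15, numpy 2.4.6, scipy 1.17.1 and pandas 2.3.3 were used.

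The cells and all gene lists were chosen with earlier results of these data known. Named genes are the 20 highest and 12 lowest ratios at 4 dpi, and the 10 highest and 10 lowest against both 14 dpi libraries, among genes with at least 50 UMIs, without mitochondrial and ribosomal protein genes, plus cassette genes, markers and 2 to 4 members of each list. Other genes named, such as those of the splits among the Tubb3 cells, were chosen after their values were seen. Promoters came from a RefSeq table on GRCm38.p6, matched by symbol. Alternatives changed the cell filter, the Tubb3 and Col1a1 thresholds, the value filter, the scaling and the cells set against the Tubb3 cells.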

Additional observations from a re-analysis of the deposited data

Results flagged for a closer look

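In 2 lists the difference between Tubb3 cells and other kept cells was opposite at 4 dpi and in both 14 dpi libraries, by at least 1 log2 unit. Other lists had opposite signs with smaller gaps, such as the integrated stress response, at -0.46 against 0.13 with supplements and 0.05 without. The median log2 ratio of G2/M genes was 0.26 at 4 dpi, against -1.19 at 14 dpi with supplements and -1.79 without. The S phase median was 0.085 at 4 dpi, against -0.94 and -1.14. At 14 dpi, cells with at least 2 Tubb3 and no Col1a1 UMIs thus had lower levels of cell cycle genes than the other cells of their library, and at 4 dpi they did not. The difference was not tested, since each group is 1 library. The S phase value at 4 dpi is near 0 and stood at -0.10 against other cells without Col1a1 and at -0.01 with the other cells weighted to the depth of the Tubb3 cells. Time, sort, dissociation and depth differ between the libraries together. The rule counts UMIs, so the same thresholds do not choose alike at unlike depths. It took 11.8% of kept cells at 4 dpi, at a median depth of 2853 UMIs in the chosen cells. At 14 dpi it took 71.6% with supplements and 41.9% without, at 15638 and 11463 UMIs. How far this moves the medians was not tested.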

How the results depend on the processing

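No paired analysis was possible because each group is 1 library. The share of Tubb3 cells was 14.5% with at least 1000 genes per cell, 22.4% at 1 Tubb3 UMI, 6.48% at 3, and 15.2% with any Col1a1, against 11.8%. In cells thinned to 1000 UMIs, where the rule was loosened to at least 1 Tubb3 and no Col1a1 UMI, it was 14.8%. Of the 227 higher and 407 lower genes at 4 dpi, the looser rule in thinned cells gave 346 higher, a filter of 5 CPM 353 higher, a filter of 30 CPM 101 higher and 179 lower, cells with under 0.5% of UMIs from S phase and G2/M genes alone 526 and 644, and no filter 5198 and 1240, where a count of 0 was set to 3. Whole intervals beyond 2-fold, an alternative chosen after seeing the data, gave 95 and 178. Lower genes numbered 238 with any Col1a1 and 219 against other cells without Col1a1. The 14 dpi counts were 375 higher and 566 lower with supplements and 486 and 741 without at 30 CPM, and 7714 and 2778, and 6671 and 3209, with no filter. Fewer genes were tested at 30 CPM. With no filter, a gene with 0 UMIs in the 4 dpi Tubb3 cells is set to 3 there. As these cells hold the smaller total, such a gene can count as higher. The counts of higher genes with no filter are therefore no estimate of higher genes. The cause of the other changes was not tested. Of 410 list medians under 18 alternatives, 29 changed sign, in 8 of 23 lists, whose medians before the change lay within 0.59 of 0 (TGF-beta response stood at 0.04 against other cells without Col1a1 and at 0.21 with a filter of 30 CPM). Of 720 values of named genes, 629 stayed within their counting interval, 90 moved out of it and 1 reversed: Cxcl2, with 2 UMIs in the Tubb3 cells, stood at a log2 ratio of 0.60 when cells with Col1a1 were let in. Depth limits genes under 10 CPM, which is 17 UMIs in the Tubb3 cells.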
